A study of Mus musculus with 2 samples.

Results

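Ribosomal protein genes were measured as 2 classes in the DNA methylome of the mouse epiblast: the protein-coding genes that make the ribosome, and the copies of them scattered through the genome. Members were the autosomal RefSeq genes whose symbol is Rpl or Rps followed by digits, or Rplp or Rpsa, leaving out the S6 kinases (Rps6k) and Rpl10l. The class of coding genes held 83 members, and the class of copies, whose symbols end in -ps and digits, held 279, which together are 362 of 47038 autosomal genes in the gene table. The copies are called retrocopies below, after the usual origin of such pseudogenes. Rps19bp1, a binding partner of Rps19 whose symbol matches the letters of the rule, was counted apart.

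The data are 1 table of methylated and unmethylated read counts at each CpG, from whole-genome bisulfite sequencing of the epiblast of wild-type XX C57Bl6/J embryos at embryonic day 6.5. The embryos came from natural matings without culture, and the epiblast had been separated by hand from extraembryonic tissue, which was used to determine sex by PCR. Both samples of the series, 2 in number, belong to this group, and the table does not keep them apart. There is therefore no replicate error for any value here, and no p-value was computed. Bisulfite converts unmethylated cytosine and leaves methylated cytosine, so a level is the percentage of read counts that were methylated. On the autosomes 89.9% of 20383623 CpGs had a read, with a median of 6 read counts per CpG and a level of 66.3%. Ranges in parentheses after a level are 95% binomial intervals (exact, Clopper-Pearson). They reflect counting error alone, and they may be too narrow because 1 read can contribute at several CpGs. RNA was not measured. Among genes that mark the epiblast, 6 of 8 promoters were low by the rule given below, with Pou5f1 (17.99%) and Tdgf1 (17.8%) unresolved. Low promoters were also found for 4 of 7 trophoblast markers, 3 of 8 extraembryonic endoderm markers and 3 of 4 blood and endothelium markers, so these promoter levels do not tell the epiblast from other tissues.

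The ribosome is built of ribosomal RNA and many proteins, split between a large subunit (Rpl proteins) and a small subunit (Rps proteins), and the genes for these proteins are among the most strongly transcribed in growing cells. Their promoters lie in CpG islands, stretches rich in CpG that usually stay unmethylated. Messenger RNAs this abundant are often reverse transcribed by the machinery of LINE-1 elements and inserted back into the genome as copies without introns and without the parent promoter. Around implantation the embryo methylates most of its genome anew, and CpG islands largely escape this.

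The contrast is visible in the bases before the annotated start. Below are the 250 bases upstream of the start of 4 parent genes, each followed by a gene derived from it, with every CpG in capitals. They are shown because the parent is CpG-dense there and the derived gene is not. Sequences are from RefSeq (GRCm38.p6, the assembly that mm10 names), 5′ to 3′ on the strand of the gene. They lie at chr3:90213649-90213898 (minus strand, Rps27), chr9:114982740-114982989 (minus, Rps27rt), chr15:5116363-5116612 (plus, Rpl37), chr5:115110269-115110518 (minus, Rpl37rt), chr1:39367601-39367850 (plus, Rpl31), chr16:16820197-16820446 (minus, Rpl31-ps12), chr13:90922872-90923121 (plus, Rps23) and chr8:3567748-3567997 (plus, Rps23rg1).
Rps27: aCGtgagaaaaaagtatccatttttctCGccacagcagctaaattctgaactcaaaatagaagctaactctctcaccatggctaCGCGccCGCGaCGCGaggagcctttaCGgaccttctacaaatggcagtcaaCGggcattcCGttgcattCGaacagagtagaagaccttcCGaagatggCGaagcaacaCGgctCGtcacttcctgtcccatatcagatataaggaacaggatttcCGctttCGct
Rps27rt: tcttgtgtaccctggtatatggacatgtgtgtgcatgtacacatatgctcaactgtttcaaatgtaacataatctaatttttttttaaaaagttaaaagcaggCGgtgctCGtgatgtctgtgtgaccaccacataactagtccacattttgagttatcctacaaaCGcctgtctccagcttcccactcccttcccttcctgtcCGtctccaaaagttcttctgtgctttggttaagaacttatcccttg
Rpl37: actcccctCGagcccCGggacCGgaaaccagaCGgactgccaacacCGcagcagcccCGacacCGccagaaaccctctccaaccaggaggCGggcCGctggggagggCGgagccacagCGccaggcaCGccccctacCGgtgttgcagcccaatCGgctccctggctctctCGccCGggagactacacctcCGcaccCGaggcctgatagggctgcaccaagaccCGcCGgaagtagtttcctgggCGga
Rpl37rt: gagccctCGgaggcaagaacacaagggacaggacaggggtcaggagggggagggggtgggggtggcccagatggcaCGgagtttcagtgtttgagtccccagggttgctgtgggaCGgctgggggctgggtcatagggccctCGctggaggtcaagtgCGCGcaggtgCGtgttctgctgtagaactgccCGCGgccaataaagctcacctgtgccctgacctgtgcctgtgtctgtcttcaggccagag
Rpl31: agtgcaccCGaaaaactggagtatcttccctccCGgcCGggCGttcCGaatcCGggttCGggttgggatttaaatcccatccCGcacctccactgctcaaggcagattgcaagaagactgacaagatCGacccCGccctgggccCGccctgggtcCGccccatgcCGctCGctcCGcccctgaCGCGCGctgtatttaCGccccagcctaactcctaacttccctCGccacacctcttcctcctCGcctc
Rpl31-ps12: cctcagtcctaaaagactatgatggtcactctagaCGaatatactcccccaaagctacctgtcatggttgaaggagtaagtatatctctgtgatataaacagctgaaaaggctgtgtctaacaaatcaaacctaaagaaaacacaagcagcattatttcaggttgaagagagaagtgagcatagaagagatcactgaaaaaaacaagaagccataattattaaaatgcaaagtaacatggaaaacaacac
Rps23: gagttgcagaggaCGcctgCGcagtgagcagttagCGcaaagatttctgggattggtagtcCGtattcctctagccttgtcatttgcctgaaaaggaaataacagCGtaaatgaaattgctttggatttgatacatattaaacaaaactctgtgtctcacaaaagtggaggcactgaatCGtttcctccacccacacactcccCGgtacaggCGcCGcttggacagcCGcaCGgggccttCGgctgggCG
Rps23rg1: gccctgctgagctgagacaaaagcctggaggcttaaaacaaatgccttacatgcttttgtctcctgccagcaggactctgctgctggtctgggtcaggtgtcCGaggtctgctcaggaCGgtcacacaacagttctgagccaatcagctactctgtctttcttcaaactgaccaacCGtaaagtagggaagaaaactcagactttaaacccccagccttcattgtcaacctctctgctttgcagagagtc

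Rps27, a small subunit protein with a zinc finger, had 18 CpGs in these bases, methylated in 23 of 246 read counts, a level of 9.35% (6.02% to 13.7%). Its derived gene Rps27rt had 4 CpGs, methylated in 17 of 19 read counts (66.9% to 98.7%). Rpl37 had 21 CpGs at 4.51% (2.27% to 7.92%), and Rpl37rt had 9 CpGs at 90.7% (77.9% to 97.4%). In both pairs the parent was low and the derived gene high, with intervals that did not overlap. Rpl31 also had 21 CpGs, at 16.6% (11.2% to 23.2%), whereas Rpl31-ps12 had 1 CpG, with 2 read counts, too few to give a level. In the fourth pair both genes were low, with overlapping intervals. Rps23 had 13 CpGs at 3.05% (0.838% to 7.63%), and its derived gene Rps23rg1, with 3 CpGs, was methylated in 0 of 28 read counts, which allows a level of up to 12.3%.

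The coding genes were next measured in a 1 kb window, 500 bp on either side of the start. Across the 83 coding genes the median level was 5.82%, with an interquartile range of 4.10% to 7.52%, and the extremes were 1.95% and 89.5%. Windows were named low where the whole interval lay under 20%, high where it lay over 60%, intermediate where it lay between these thresholds, and unresolved where it crossed 1 of them. By this rule 76 coding genes were low, 5 high, 2 unresolved and 0 intermediate. The background was 65.8% called low over all autosomal protein-coding genes and 97.3% over those with at least 40 CpGs in the window. Of the 83, 74 had at least 40 CpGs, and each of these 74 was called low, a share close to that second background. Their median of 5.51% was also close to the 5.38% of all autosomal protein-coding promoters of that CpG class. The coding genes lie on 18 of the 19 autosomes.

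**Figure D1:**
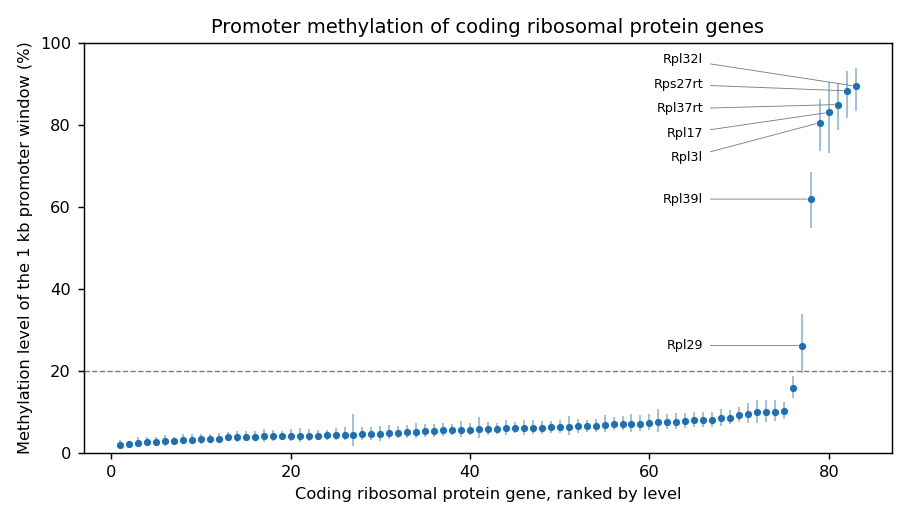
Methylation level of the 1 kb promoter window (y axis, percent) of the 83 coding ribosomal protein genes, ranked from lowest to highest (x axis). Points are levels, bars are 95% Clopper-Pearson intervals, and the dashed line marks 20%; 76 genes lie below it with their whole interval, and the 7 that do not are named.

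Among the lowest promoters were those of Rpl32 at 1.95% (1.14% to 3.11%; chr6:115808243-115809243) and Rpl36al at 2.04% (1.42% to 2.84%; chr12:69183567-69184567). Rpl22l1, a paralog of Rpl22, was at 2.60% (1.63% to 3.91%; chr3:28805008-28806008). These 3 intervals overlap, so their order is not resolved. Rpl36al, a close relative of the X-linked Rpl36a, had the most CpGs of any member, 117, and its start lies 91 bp from that of the glycosyltransferase gene Mgat2. In all, 15 coding starts lay within 1000 bp of the start of another protein-coding gene.

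Large and small subunit genes differed little. The 50 large subunit genes had a median of 5.999% with 44 called low, and the 33 small subunit genes had a median of 5.48% with 32 called low. In the acidic stalk, which recruits elongation factors, Rplp0 was at 5.93%, Rplp1 at 3.23% and Rplp2 at 4.03%. Rpsa, which is also known as the laminin receptor, was at 8.55% (6.92% to 10.4%). Among genes whose human counterparts are mutated in Diamond-Blackfan anaemia, the 8 given here were low, from Rps19 at 3.18% (2.20% to 4.44%) to Rps26 at 9.98% (7.57% to 12.9%). Between these lay Rps7 (3.81%), Rpl5 (4.96%), Rps10 (5.44%), Rpl35a (6.07%), Rps24 (6.54%) and Rpl11 (8.40%). Rpl5 and Rpl11 also bind Mdm2 when ribosome assembly fails. Rps19 and Rps26, the extremes of those listed, did not overlap in their intervals. Since these intervals may be too narrow, a spread beyond counting error within the low class is not established.

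Proteins of the ribosome's functional core were in the same range. Rpl3, which lies near the peptidyl transferase center, was at 4.10%, Rpl4, which lines the exit tunnel, at 5.74%, and Rpl8 at 9.21%. Of the small subunit, Rps2 was at 3.93%, Rps3 at 7.20%, Rps14 at 6.18%, and Rps6, the target of the S6 kinases, at 3.90%. Rps27a, which is made as a fusion with ubiquitin, was at 2.72%. The corresponding genes outside the symbol rule were low too, among them Fau at 3.42% and the scaffold gene Rack1 at 3.41%. Rps19bp1 was at 7.46%.

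At the upper edge of the low class were Rpl31, at 10.1% (8.14% to 12.4%), and Rpl36, at 15.8% (13.2% to 18.7%; chr17:56609594-56610594). The gene table gives no strand for Rpl36, and its window was placed at the gene end with more CpGs, 51. The other end of Rpl36, with 49 CpGs, was at 5.97% (4.28% to 8.07%). The start of Micos13 lies 323 bp from the window's center.

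The 7 coding genes that were not low had 12 to 31 CpGs in the window, and so none of these windows reached 40 CpGs. Of the 5 genes called high, 3 are relatives of an expressed gene that RefSeq annotates as coding. Rpl32l was at 89.5% (83.6% to 93.9%; chr10:20207939-20208939) and lies inside Map7, Rps27rt was at 88.4% (81.9% to 93.2%; chr9:114982239-114983239) and lies inside Osbpl10, and Rpl37rt was at 85.1% (78.9% to 90.001%; chr5:115109768-115110768). Their levels lay within the range of the retrocopies described below. The fourth, Rpl3l, encodes the striated muscle form of Rpl3 and was at 80.6% (73.6% to 86.4%; chr17:24732185-24733185), with 62.1% at the gene end farther from that window. Rpl39l, a relative of Rpl39 used in male germ cells, was unresolved at 61.95% (54.9% to 68.6%; chr16:10169728-10170728). The paralogs Rpl7l1 (9.80%), Rps27l (5.21%) and Rpl22l1 (2.60%) were low. Among genes with under 40 CpGs, 2 were low: Rpl23a, at 7.48% over 38 CpGs, and Rps23rg1, at 4.41% over 16 CpGs (1.64% to 9.36%; chr8:3567498-3568498). The interval of Rps23rg1 overlaps the retrocopy Rps23-ps2, which was at 73.7%, and the body of Rps23rg1 was at 74.97%.

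The remaining 2, Rpl17 and Rpl29, have no start in the promoter table used, and their windows were placed at a gene end. Rpl17 was at 83.1% over 12 CpGs (73.3% to 90.5%; chr18:74998478-74999478), and Rpl29 was at 26.1% over 23 CpGs (19.4% to 33.9%; chr9:106428389-106429389). The most CpG-dense 1 kb of each gene was then measured, an alternative chosen after these values were seen. In Rpl17 that stretch had 75 CpGs at 4.13% (2.95% to 5.599%; chr18:75000028-75001028), and in Rpl29 it had 62 CpGs at 9.85% (7.88% to 12.1%; chr9:106429039-106430039). Both genes thus hold a CpG-dense stretch that was low. By that window 77 of the 83 coding genes were low. Rps23rg1, low at its annotated start (4.41%), was unresolved in that window, at 66.4% (58.3% to 74.0%).

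The low level ended on both sides of the start. In bins of 100 bp summed over the 76 low genes, the level was 4.98% in the first 100 bp of the gene and stayed under 10% from 400 bp before the start to 800 bp after it. It was 20.1% at 1000 bp into the gene and 71.2% at 1900 bp. Upstream it was 36.6% at 1000 bp and 71.0% at 2000 bp. CpG density fell along with the rise in level, from 9.67 CpGs per 100 bp in the second bin of the gene to 1.58 at 1000 bp. Gene bodies were taken from 1000 bp beyond the window's center to the gene end farther from it, whatever the strand. Their median was 67.5% over the 75 coding genes long enough and deep enough to measure. In Rpl19, Rpl3l and Rps2 the farther end lies upstream of the annotated start, and so does the stretch measured. For genes without a given strand its side is not known. The body median over all autosomal protein-coding genes, taken in the same way, was 77.0%. The coding ribosomal bodies had a median length of 2352 bp, against 19637 bp. Their median level was 41.2% when the body began 500 bp from the window's center and 80.5% when it began 2000 bp from it. The ends of the gene differed by more than 30 points in 61 of the 75 coding genes with both ends measured, compared with 71.2% of all autosomal protein-coding genes and 91.9% of those with at least 40 CpGs.

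The stretches measured as bodies stood low in 3 genes, Rpl36 (10.5%), Rpl17 (11.6%) and Rpl19 (16.1%). Each of these stretches overlaps the most CpG-dense 1 kb of its gene. That 1 kb was at 2.89% over 82 CpGs in Rpl36, 4.13% over 75 in Rpl17 and 4.64% over 90 in Rpl19. The values therefore do not show that the bodies apart from CpG-dense DNA were low. Rpl36, Rpl19 and Rpl41 also had a low second end, at 5.97%, 8.04% and 7.49%. Rpl41 is only 1059 bp long, so both of its windows hold the same CpGs in part. At the other extreme, the bodies of Rpl39l (88.7%), Rps26 (88.3%) and Rps27l (88.0%) were highest. Small nucleolar RNAs, guides for the modification of ribosomal RNA that are often encoded in introns, were annotated inside 28 coding genes, 57 in all, with the most, 5, in Rpl4. The 28 hosts had a promoter median of 4.90% with 27 low, and the 55 other genes had 6.09% with 49 low.

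Retrocopies were at the opposite end of the scale. Of 279, 265 could be measured in the 1 kb window, here centered on the end of the copy with more CpGs, since the tables used give the strand of 2 copies. Their median level was 80.2%, with an interquartile range of 73.3% to 86.7% and extremes of 23.1% and 98.0%. The difference between the medians of retrocopies and coding genes was 74.4 points. By their intervals 220 retrocopies were high, 9 intermediate, 36 unresolved and 0 low. The background was 55.3% called high among other autosomal genes with -ps symbols and 15.0% among all autosomal protein-coding genes, compared with 83.0% of the measured retrocopies. The difference in the call rate goes with a difference in precision: the median interval was 15.6 points wide for retrocopies and 21.8 points for the other -ps genes, whose median level was 75%. No test of these differences was made, because genes within 1 table are not replicates.

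Windows at the other end gave unlike values in coding genes and like values in copies. At the gene end farther from the window, the coding genes had a median of 76.7% with 3 called low, and the retrocopies 79.4% with 188 of 247 called high.

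**Figure D2:**
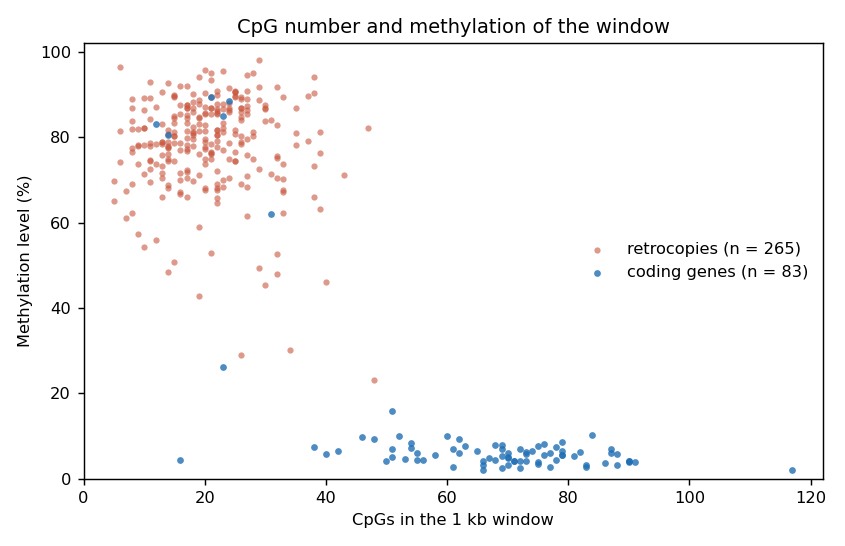
CpGs in the 1 kb window (x axis) and methylation level (y axis, percent) for the 83 coding genes (blue) and the 265 measured retrocopies (red). Coding genes with at least 40 CpGs form a band below 20%, and the retrocopies, with at most 48 CpGs, lie mostly above 60%.

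CpG number also differed between the classes. Coding windows had a median of 69 CpGs (interquartile range 54.5 to 77.5) and retrocopy windows 20 (14 to 25.5). Fewer CpGs than the parent were found in 248 of the 256 measured retrocopies whose parent is an autosomal coding member, and the median retrocopy had 27.7% of the parent's number. Retrocopies with 20 to 39 CpGs allow a comparison within 1 class of CpG number, though not at equal number or placement. Median CpG numbers in the class were 25 for retrocopies, 28 for protein-coding genes and 24 for other -ps genes. Annotated starts placed 2015 of the 2767 protein-coding windows, while retrocopy windows mostly lie at the denser end. Of 138 measured retrocopy windows in the class, 121 (87.7%) were high and the median was 81.2%. Protein-coding windows of that class had a median of 21.3%, with 20.4% called high, and other -ps genes of that class had a median of 77.95%, with 69.7% called high. The retrocopies' median was thus nearer to that of other pseudogenes of this CpG class than to that of protein-coding promoters. Among retrocopies, CpG number and level were nearly unrelated, with a Spearman correlation of 0.07 and a Pearson correlation of -0.08 across 265 genes, which share the libraries and are given as a description.

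Inside the annotated copy, CpG density was several times that of its surroundings, and the level was slightly higher. In the last 100 bp within either end the density was 3.10 CpGs per 100 bp at a level of 79.4%. In the first 100 bp outside, it was 0.754 CpGs per 100 bp at 75.2%. The copies had a median length of 539 bp. Over whole copies, 248 of which could be measured, the median level was 80.1%. Copies with fewer than 2 CpGs per 100 bp had a median of 79.1% (63 copies), those with 2 to 4 had 83.4% (136) and those with 4 to 6 had 79.5% (41). The 8 copies with 6 or more had 69.4%, with 3 called high, 1 intermediate and 4 unresolved. These were Rpl36-ps12 (96.9%), Rpl36-ps3 (80.3%), Rpl28-ps1 (72.3%), Rpl28-ps3 (72.2%), Rps16-ps2 (66.7%), Rpl36-ps2 (58.4%), Rps15-ps2 (52.6%) and Rpl36-ps8 (30.2%), so levels among the densest copies covered most of the range seen in the class.

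**Figure D3:**
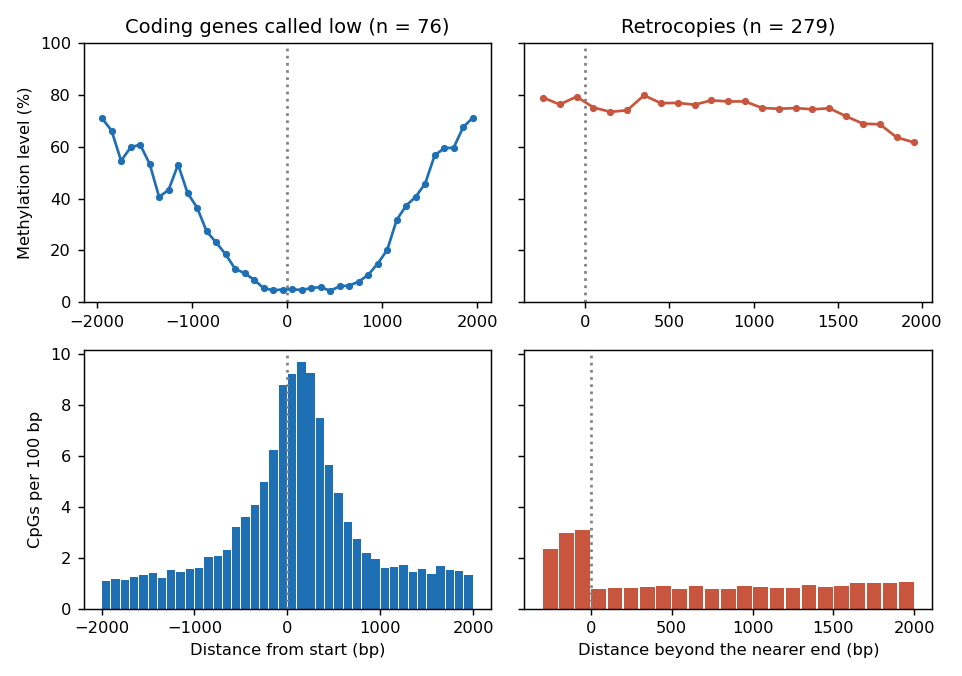
Methylation level (top, percent) and CpG density (bottom, CpGs per 100 bp) in bins of 100 bp, summed over the 76 low coding genes by distance from the start (left, gene to the right) and over the 279 retrocopies by distance from the nearer end (right, inside the copy below 0). The level dips to 4.98% at coding starts and stays above 60% in and around retrocopies, although density inside the copies rises to 3.10.

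Single CpGs were described in the windows of the low coding genes and inside all retrocopies. Coding genes not called low were left out. These coding windows were chosen for a low pooled level, so mostly low CpGs in them follow from that choice. Of 4983 CpGs with at least 5 read counts in the windows of the 76 low coding genes, 54.8% had no methylated read, 95.3% were at or below 20% and 0.0602% were at or above 80%. Of 2632 such CpGs inside retrocopies, 58.6% were at or above 80%, 22.9% were fully methylated and 1.48% were at or below 20%.

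The flanks, 1 to 5 kb beyond both ends, had a median of 75.8%, and the copy was above its own flanks in 181 of 248 cases (73.0%), by a median of 5.93 points. Among other -ps genes the background was 60.6% above the flanks. Of 14 retrocopies whose flanks were under 50%, 11 were at 60% or more. Over all 248 copies the first quartile was 74.2%, so levels of 60% or more were usual whatever the flanks. The count of 11 therefore shows nothing particular to copies with low flanks. Rpl30-ps3 was at 78.9% with flanks at 18.1%, Rpl31-ps7 at 84.2% with flanks at 30.8%, and Rps26-ps1 at 86.7% with flanks at 25.98%. Rps19-ps10, at 46.9% with flanks at 18.7%, was an exception. A flank can hold the start of a neighboring gene, so a low flank does not mean low DNA all around the copy. The start of Fnbp4 lies 2007 bp from the window's center of Rpl30-ps3, within its flank. For Rpl31-ps7 the nearest protein-coding start lies 27554 bp away. The part of promoters in the low flanks was not tested. Across the 248 copies the Spearman correlation between flank and copy was 0.36 and the Pearson correlation 0.27, again as a description.

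**Figure D4:**
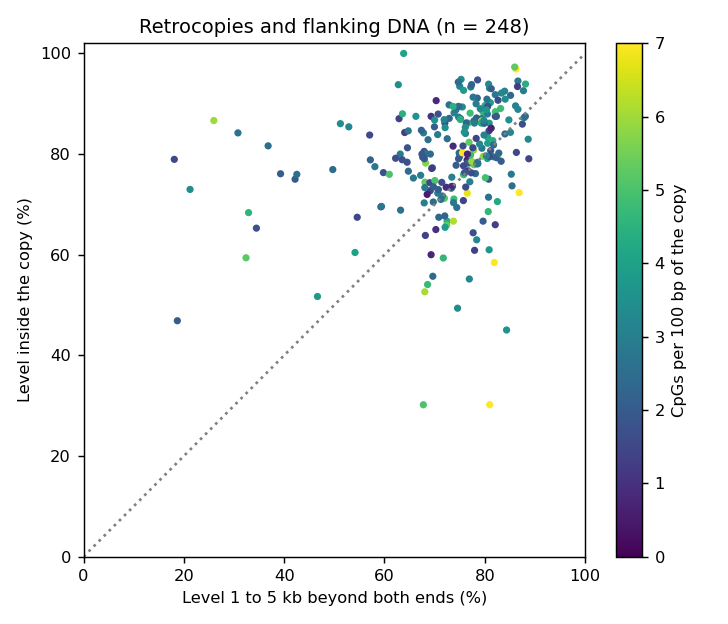
Level inside each of 248 retrocopies (y axis, percent) and level 1 to 5 kb beyond both of its ends (x axis, percent), colored by CpGs per 100 bp of the copy; the dotted line marks equal levels. Most copies lie above the line (181 of 248), including most of those with flanks under 50%.

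Retrocopies were found on each of the 19 autosomes, and none had the start of a protein-coding gene within 2000 bp of its window's center. Inside protein-coding genes lay 70 copies, inside lncRNA genes 16, and outside both 193. The median was 84.5% for the 69 measured copies in protein-coding genes (63 high), 77.9% for the 16 in lncRNA genes (13 high) and 78.8% for the 180 outside (144 high). The lowest copy inside a protein-coding gene was Rps12-ps4, at 52.7%, in Nphs1. RefSeq lists 7 retrocopies as transcribed pseudogenes, 2 as protein-coding and 1 as a lncRNA. Each of these 10 was methylated. Rplp2-ps1 (91.9%) and Rps15a-ps6 (89.9%) were highest, Rps6-ps4 (86.9%), Rpl17-ps10 (86.8%), Rpl34-ps1 (86.3%), Rpl14-ps1 (85.7%), Rps19-ps3 (80.6%), Rps18-ps4 (78.7%) and Rps15a-ps4 (77.0%) followed, and Rpl31-ps12 was unresolved at 65.8%.

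Copy number on the autosomes varied by parent. The 279 retrocopies carry 56 parent names, 44 of which have at least 2 copies. Rpl31 had the most, 24, followed by Rpl21 (14), Rps19 (13), Rpl23a and Rpsa (12 each), and Rps2, Rpl19 and Rpl7a (11 each). Copies on the X would change this order, since Rps12 had 8 autosomal copies and 15 on the X. No autosomal retrocopy carried the name of 30 of the coding genes, among them Rpl3, Rpl4, Rpl8, Rps3 and Rps14. Of 256 measured retrocopies whose parent is an autosomal coding member, 250 were above that parent. The parent was low for 242 of them, and each of the 242 was above its parent, by 7.33 to 93.6 points. That count was fixed by the choice of low parents. The lowest retrocopy, at 23.1%, stood above the highest low coding gene, at 15.8%, so any pairing would give it. The smallest difference, 7.33 points, is Rpl36-ps8 against the window chosen for Rpl36. Against the other end of Rpl36 that difference was 17.2 points. Rpl31 was at 10.1% and its 23 measured copies at a median of 77.97%, with extremes of 54.3% and 93.4%. Rps19 was at 3.18% and its 10 measured copies at a median of 79.7%, with extremes of 48.5% and 92.1%. Rpl21 was at 4.78% and its 14 copies at a median of 77.3%, with extremes of 42.9% and 86.8%. For each of these parents the lowest copy stood well above the parent's interval. Among parents with at least 2 measured copies, the medians of the copies ran from 64.7% for Rps15 to 92.1% for Rps7.

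**Figure D5:**
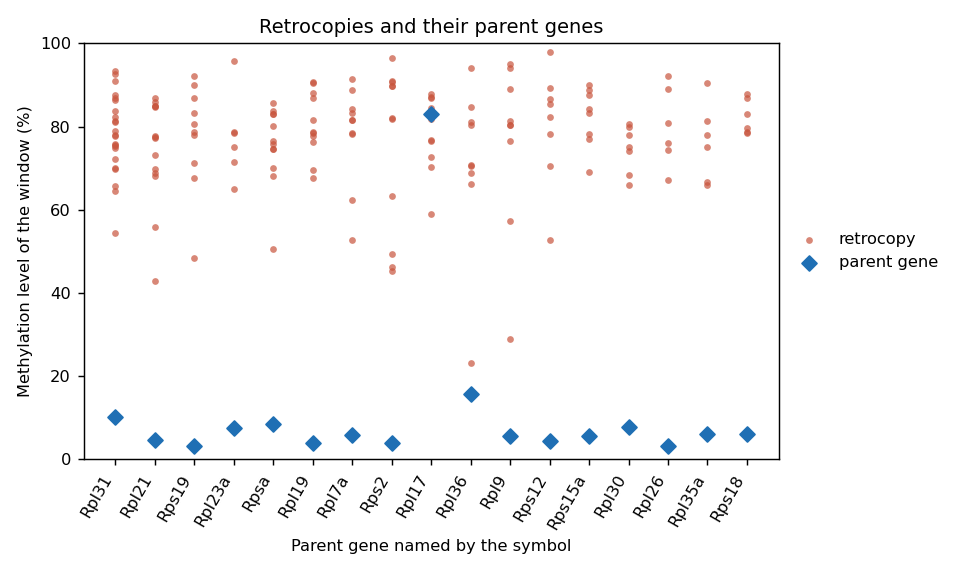
Methylation level of the 1 kb window (y axis, percent) of measured retrocopies (red points) and of their parent gene (blue diamonds) for the 17 parent names with at least 6 copies, ordered by copy number (x axis). Copies lie above the parent except for some of Rpl17, whose window at a gene end was at 83.1%.

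The most methylated retrocopies were Rps12-ps3 at 98.0% (89.6% to 99.95%; chr19:59322284-59323284), Rps2-ps12 at 96.6% (82.2% to 99.91%; chr9:30512440-30513440) and Rpl23a-ps2 at 95.9% (90.6% to 98.6%; chr11:70878896-70879896). Rpl5-ps1 was at 95.6% (89.1% to 98.8%; chr1:14864518-14865518), and Rps7-ps2 (chr12:3523068-3524068) and Rpl9-ps4 (chr13:72454878-72455878) were both at 95%. The 6 intervals overlap.

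The retrocopies under 50% numbered 9, and they differed in where the reduced level lay. Rpl36-ps8, the copy with the most CpGs in its window, 48, was lowest at 23.1% (18.8% to 27.9%; chr4:116839380-116840380) and was unresolved by the rule. Its flanks were at 81.0% and the copy itself at 30.2%. Rpl13-ps6 was at 30.1% (24.4% to 36.4%; chr3:58986623-58987623) with flanks at 67.8%. Rps2-ps6 (45.4%, flanks 84.3%; chr14:76237074-76238074), Rps2-ps5 (49.4%, flanks 74.6%; chr14:69158081-69159081) and Rpl15-ps6 (47.9%, flanks 68.6%; chr15:52477893-52478893) had another end at 82.9%, 75% and 73.8%; the 75% of Rps2-ps5 rests on 6 CpGs and its interval overlaps that of the lower end. Rps2-ps7 was at 46.2% with flanks at 46.6% and its other end at 73.3% (chr16:18681742-18682742), and Rps19-ps10 was at 48.5% with flanks at 18.7% (chr10:52384126-52385126). In these last 2 the flanks were under 50% as well.

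In Rpl9-ps3 and Rpl21-ps7 the reduced level lay beside the copy rather than in it. Rpl9-ps3 was at 28.9% in the window (23.1% to 35.3%; chr11:53500639-53501639), 66.7% inside the copy and 69.2% at its other end. Rpl21-ps7 was at 42.9% in the window (33.2% to 52.9%; chr17:83288009-83289009) and 78.3% inside the copy. Rps12-ps4 was of this kind too, at 52.7% in the window (chr7:30484160-30485160) and 76.0% inside. Ends that differed by more than 30 points were found in 4 of 246 retrocopies, namely Rpl9-ps3, Rpl21-ps7, Rps2-ps6 and Rpl7a-ps8 (52.8% and 85.2%). Among other -ps genes the share was 4.91% of those measured. Where their bodies were measured, these genes had a median length of 1218 bp, against 553 bp for retrocopies. Their end windows thus overlap less, and the 2 shares are not directly comparable. The 9 retrocopies called intermediate were Rps12-ps4 and the copies under 50% other than Rpl36-ps8.

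The other unresolved retrocopies, 35 besides Rpl36-ps8, ranged from 50.7% to 77.8%. From the lowest up to 65%, these included Rpsa-ps1, Rpl7a-ps8, Rpl31-ps25, Rpl21-ps5, Rpl9-ps5, Rpl17-ps6, Rps15-ps2, Rps10-ps1, Rpl7a-ps2, Rps2-ps8, Rpl31-ps17 and Rpl23a-ps8. Those above 65% included Rpl31-ps12, Rpl35a-ps5, Rpl30-ps1, Rpl35a-ps4, Rpl26-ps5, Rpl19-ps4, Rpl21-ps11, Rpl10-ps5, Rps13-ps2, Rpl21-ps6, Rps15a-ps8, Rpl19-ps5, Rpl31-ps2, Rpl21-ps3, Rpl17-ps4, Rpl23a-ps4, Rpl30-ps2, Rpl10-ps3, Rps23-ps1, Rpl21-ps2 and Rpl21-ps12. Unresolved retrocopies had a median of 61 read counts and high ones 112. At this depth their position against the thresholds was not resolved.

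Depth differed between the classes, and copies share sequence with their parents and with each other. In coding windows 99.4% of CpGs had a read, with 12.1 read counts per CpG, and in retrocopy windows 84.8% had one, with 5.86 per CpG. Inside the copies the values were 81.0% and 5.40, and in their flanks 90.4% and 6.71. The 14 retrocopies that were not measured included Rpl23a-ps6, Rpl23a-ps7, Rpl23a-ps9, Rpl23a-ps10, Rpl23a-ps11, Rpl23a-ps12, Rpl27-ps3, Rpl29-ps4, Rpl31-ps3, Rpl7a-ps9, Rps19-ps1, Rps19-ps2 and Rps19-ps12. Rps19-ps1 and Rps19-ps2 had 18 CpGs and 1 read count each. Reads placed at the wrong copy would mix levels of parent and copy, and their part in these values was not tested.

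Short motifs were searched on both strands in the 300 bases around the annotated start of the 58 low coding genes in the promoter table. CCGGAAG, the core bound by ETS factors such as GABP, was present in 23 of 58 (39.7%), compared with 19.1% of CpG-rich autosomal protein-coding promoters and 12.5% of all of them. Its CpGs in these promoters, 27 in all, were methylated in 19 of 317 read counts, a level of 5.99% (3.65% to 9.20%). The Sp1 core GGGCGG was present in 60.3%, compared with 74.2% of CpG-rich and 49.0% of all promoters, with its CpGs at 4.71%. The 58 promoters were chosen for a low level, so low CpGs in these motifs largely follow from that choice. The pyrimidine run CTCTTTCC, which resembles the tract at the start of ribosomal protein messages, was found in 15.5% compared with 2.81% and 2.94%, and AAGATGGC, the YY1 core, in 8.62% compared with 4.67% and 3.29%. TATAAA was found in 6.90% compared with 5.46% and 13.2%. These are descriptions of letters in a window, and overlaps between motifs were not removed.

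Other genes of translation served for comparison. The 78 mitochondrial ribosomal protein genes had a promoter median of 5.91% with 76 low, 68 translation factor genes (Eif and Eef symbols) 5.17% with 64 low, and 34 autosomal ribosome biogenesis genes 6.47% with 32 low. The median of the coding cytosolic genes, 5.82%, lay among these medians, and their share called low, 91.6%, was below those of these lists, which were 97.4%, 94.1% and 94.1%. Their bodies differed more, with medians of 84.8% for mitochondrial ribosomal proteins, 84.01% for translation factors and 85.8% for biogenesis genes, against 67.5% for the cytosolic genes, which were shorter.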

How the data were processed

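The authors deposited read counts, methylated and unmethylated, for each strand of each CpG, without normalization. Bismark 0.12.5, Bowtie2 2.1.0, cutadapt 1.3 and mm10 stand in the submitters' processing notes, which are used here without what each was for. How the 2 samples were combined and whether duplicate reads were removed is not given in the sources used here. Any duplicates left in would make intervals too narrow.

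Counts of the 2 strands were summed per CpG. A region's level is its methylated over its total read counts, and a region was taken as measured from 20 read counts on 5 covered CpGs upward. Gene positions are from RefSeq GRCm38.p6. Starts came from the RefSeq promoter table for 63 coding genes and 2 retrocopies, with the start of most CpGs taken where several were listed; otherwise the gene end with more CpGs was used. The latter included Rpl3, Rpl7, Rpl8, Rpl17, Rpl21, Rpl23a, Rpl29, Rpl30, Rpl32, Rpl36, Rplp1, Rps14, Rps20, Rps27a and Rps29 among coding genes.

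Named were extremes, members outside the usual call of their class, paralogs and fixed functional groups; coding genes with unlike ends are given as a count. Some items are not reported here by name and stay in the counts. Members and lists were chosen with earlier results of these data known, and the motifs, printed sequences and density classes after values were seen. Calls and intervals were tested on simulated data with independent counts at each CpG and levels far from the thresholds. That simulation could not test dependence between CpGs of 1 read, duplicates, or calls near a threshold. Tools were Python 3.11.15, numpy 2.4.6, pandas 2.3.3 and scipy 1.17.1.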

Additional observations from a re-analysis of the deposited data

How the results depend on the processing

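Each of 7 results (the 3 promoter levels, the 2 counts of calls and the 2 body medians) was recomputed under the alternatives that apply to it, 70 values in all. Of these 63 stayed within the median half-width of the members' intervals or, for counts, within 1.5 times. Only the retrocopy minus coding difference has a direction, and it stayed positive over its 10 alternatives, from 2.67 to 75.1 points. The other results are levels and counts, with no direction to turn. For retrocopies, the gene end with more CpGs was already the main window except in the 2 with an annotated start. The unchanged 80.2% and 220 called high under that setting follow largely from this. The median of retrocopy windows ranged from 79.4% to 80.6% over its 11 alternatives. Placing the window at the other gene end gave a coding median of 76.7%, a difference of 2.67 points and 3 coding genes called low, since that window holds the far end of the gene. The number of retrocopies called high was 128 (of 147 measured) with at least 10 CpGs with a read and 100 read counts, and 135 with a threshold of 70%. The coding body median was 41.2% from 500 bp and 80.5% from 2000 bp beyond the window's center. With a threshold of 10%, 65 coding genes were low. Windows at the densest 1 kb of a coding gene, and whole copies in place of windows (207 of 248 called high), were chosen after seeing the data. No paired analysis was possible because the table holds 1 group with no column per sample; leaving out a replicate was not possible for the same reason.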

Other observations

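Members of the family that the symbol rule or the restriction to autosomes left out gave these values. The X-linked coding genes were low, with Rpl39 at 11.4% (8.50% to 14.9%), Rps4x at 11.5% (8.67% to 14.9%), Rpl10 at 12.5% (9.65% to 15.9%) and Rpl36a at 16.4% (13.5% to 19.8%), each above the autosomal coding median of 5.82%. The 37 retrocopies on the X had a mean of 3.14 read counts per CpG, counting those without reads. Of these, 24 could be measured, with a median of 76.9% and extremes of 52.0% and 88.5%, and 12 were called high. Among 10 autosomal pseudogenes of the family whose symbols do not end in -ps and digits, 8 were called high and 1, Rpl39-ps at 69.6%, was unresolved. The remaining 1, Rps4l, was low at 7.83% in a window of 74 CpGs; it lies inside Tmtc1, and its whole interval of 80 CpGs was at 6.85%.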
